A study of Mus musculus with 2 samples.

Results

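Heme that is not built into hemoglobin has to be broken down, moved between compartments or passed out of the cell, and 10 genes for these steps were followed in mouse erythroblasts, which still have a nucleus and go on to become red cells. They were chosen by symbol for their known roles and were matched through their Ensembl identifiers. They are 10 of 43346 gene rows and have 49 annotated transcripts. All 10 are protein-coding genes of the nucleus, of which the tables hold 21461.

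The erythroblasts were primary cells from C57BL/6J males, adults of 5 to 6 weeks, and the labels name no transgene and no treatment. Total RNA was sequenced in 2 libraries, biological replicates 1 and 2, with an input of 1 ng and added spike-ins for each. The labels give the libraries separate biosamples under a single donor entry and do not say whether these came from separate animals, so the spread given below is the spread between these libraries and may be technical. Both form 1 group with no second condition, so the question answered here is which of these genes erythroblast RNA held, at what level and as which transcripts, and no test between conditions exists.

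Heme oxygenase opens the heme ring and sets free iron, carbon monoxide and biliverdin, and biliverdin reductase turns biliverdin into bilirubin. Cells also export heme and porphyrins through membrane proteins, and carry them between mitochondria, lysosomes and cytosol. Developing red cells are known for very high heme synthesis, while macrophages of the marrow, spleen and liver are known for breaking down the heme of old red cells.

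Expected counts, the estimated reads per gene, summed to 80806663 in replicate 1 and 117032607 in replicate 2, but nuclear protein-coding genes took only 5.44% and 5.82% of them. TPM, a level scaled to transcript length and to a fixed total, was dominated by mitochondrial rRNA at 78.3% and 78.5%. A value of 1 on the scale rescaled to nuclear protein-coding genes therefore equals only 0.0468 deposited TPM in replicate 1 and 0.051 in replicate 2. All 14 erythroid marker genes were detected, with a median of 83.1 and 91.8 TPM, led by the adult globin genes Hbb-bs, Hba-a2, Hbb-bt and Hba-a1.

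Each of the 3 roles, breakdown, export and transport inside the cell, had a gene with a mean above 10 TPM, and breakdown and export also had genes below 1 TPM. Tspo2, Blvrb, Abcg2 and Slc48a1 were the highest of the 10 genes, between 9.73 and 26.87 TPM in the 2 libraries. Abcb6 and Hmox1 followed at 1.98 to 4.46 TPM. Hmox2, Blvra and Flvcr1 lay near or below 1 TPM, and Flvcr2 was at the limit of the data. A TPM of at least 1 in both libraries was met by 6 of the 10 genes and by 14.5% of nuclear protein-coding genes. The median over the 10 genes was 3.46 and 3.03 TPM, against 0.03 and 0.02 TPM over all nuclear protein-coding genes. The 10 genes were chosen with earlier results of these data known, so these contrasts with all genes are a description only. On the rescaled scale, 9 of the 10 reached at least 1 in both libraries, as did 42.9% of nuclear protein-coding genes.

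**Figure D1:**
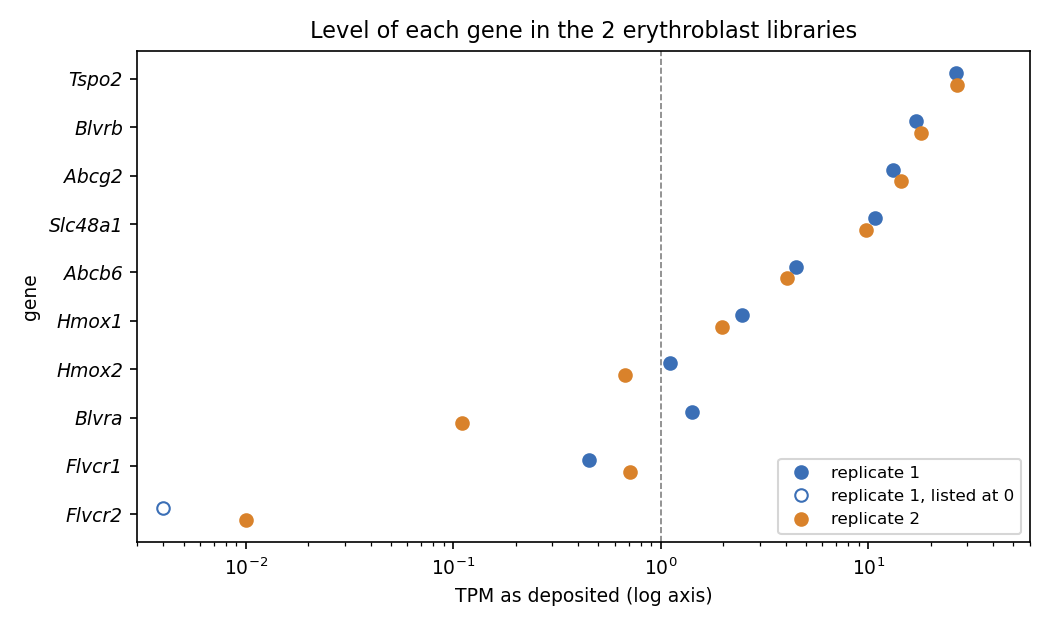
Deposited TPM (log axis) of the 10 genes in replicate 1 (blue) and replicate 2 (orange), ordered by mean; the open circle marks a value listed at 0, drawn at the left edge, and the dashed line marks 1 TPM. The 6 upper genes lie right of the line in both libraries, and the points of Blvra lie far apart at 1.42 and 0.11 TPM.

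In the order of mean TPM, each gene from Tspo2 down to Hmox1 had its lowest library above the highest library of the next gene. The ranges of Hmox2 and Blvra overlapped, as did those of Blvra and Flvcr1, so these neighbours did not differ beyond the spread between the libraries. The genes are not replicates of each other.

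Among the genes of heme breakdown, the heme oxygenases stood below the reductase Blvrb. Hmox1 (ENSMUSG00000005413.7, chromosome 8, 75093621 to 75100589, plus strand, mm10) encodes the inducible heme oxygenase. It stood at 2.46 TPM in replicate 1 and 1.98 TPM in replicate 2, a mean of 2.22 ± 0.339 (SD, n = 2). Its 257 expected counts have an exact 95% Poisson interval of 227 to 290, and its 305 counts in replicate 2 one of 272 to 341. These intervals, and all others given here, cover counting error only. Among nuclear protein-coding genes Hmox1 ranked 1638 in replicate 1 and 2144 in replicate 2.

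Hmox2 (ENSMUSG00000004070.11, chromosome 16, 4726361 to 4766742, plus strand) encodes the constitutive heme oxygenase. It was at 1.11 and 0.67 TPM, or 0.89 ± 0.311 (SD, n = 2), from 127.33 and 112.1 counts. Hmox1 was thus 2.22 times Hmox2 in replicate 1 and 2.96 times in replicate 2, and the libraries of these genes did not overlap. The exons of Hmox2 share 892 bases with Cdip1, a gene of the opposite strand that held 50.67 and 50.9 counts. Of the 30-base words of Hmox2-201, 49.5% also occur in Cdip1 transcripts when strand is ignored. Whether the counting used strand is not given in the sources used here, so reads of these genes may not have been told apart. Both genes held fractional counts, so the level of Hmox2 and its ratios to Hmox1 rest on how reads were shared out.

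Blvrb (ENSMUSG00000040466.11, chromosome 7, 27447978 to 27466144, plus strand) encodes biliverdin reductase B, an enzyme abundant in red cells that also reduces flavins. It stood at 17.03 and 17.95 TPM, a mean of 17.5 ± 0.651 (SD, n = 2), from 970 and 1326 counts. Blvra (ENSMUSG00000001999.11, chromosome 2, 127070665 to 127097084, plus strand) encodes biliverdin reductase A, which makes bilirubin from the biliverdin of adult heme breakdown. It was at 1.42 TPM in replicate 1 and 0.11 TPM in replicate 2. Blvrb was 12 times Blvra in the first of these and 163 times in the other, so the direction was shared while the size was not. Blvrb was also 6.92 and 9.07 times Hmox1.

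Blvra had the widest gap between the libraries among the 10 genes. Its counts were 89 (95% interval 71.5 to 110) in replicate 1 and 12 (6.2 to 21) in replicate 2, which was the more deeply sequenced library. The intervals do not overlap. Scaled for library size and composition, it was 9.82 times higher in replicate 1.

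The genes grouped here under export divided into Abcg2, the highest, and 2 genes of the Flvcr family at lower levels. Abcg2 (ENSMUSG00000029802.9, chromosome 6, 58584523 to 58695676, plus strand) encodes a membrane pump that removes porphyrins and many drugs from cells. It stood at 13.11 and 14.36 TPM, or 13.7 ± 0.884 (SD, n = 2), from 1643 and 2579 counts. It ranked 345 and 341 among nuclear protein-coding genes. Flvcr1 (ENSMUSG00000066595.5, chromosome 1, 191005847 to 191026158, minus strand) encodes a protein of the plasma membrane described as a heme exporter and as a choline transporter. It was at 0.45 and 0.71 TPM, or 0.58 ± 0.184 (SD, n = 2), from 83 and 187 counts. Abcg2 was 29.1 times Flvcr1 in replicate 1 and 20.2 times in replicate 2.

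Flvcr2 (ENSMUSG00000034258.3, chromosome 12, 85746539 to 85813585, plus strand), a close relative of Flvcr1, had 0 counts in replicate 1 and 2 counts in replicate 2. The exact 95% Poisson interval of a count of 0 runs to 3.69 counts. The limit of 3 counts used here for genes at 0 equals 0.0126 TPM for this gene, so its RNA was not detectable at this depth in replicate 1.

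All 3 genes of transport inside the cell were detected. Tspo2 (ENSMUSG00000023995.7, chromosome 17, 48447907 to 48451522, minus strand) encodes the erythroid relative of the translocator protein, a membrane protein that binds cholesterol and porphyrins. It was the highest of the 10 genes at 26.59 and 26.87 TPM, a mean of 26.7 ± 0.198 (SD, n = 2), from 3003 and 4365 counts. It ranked 169 and 185 among nuclear protein-coding genes. Its widely expressed relative Tspo was at 3.77 and 2.62 TPM, so that Tspo2 was 7.05 and 10.3 times higher. Alas2, which catalyses the first step of heme synthesis in red cells, was in turn 6.59 and 6.81 times Tspo2.

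Slc48a1 (ENSMUSG00000081534.2, chromosome 15, 97778520 to 97792692, plus strand) encodes a heme carrier of endosomes and lysosomes that brings heme into the cytosol. It stood at 10.79 and 9.73 TPM, or 10.3 ± 0.75 (SD, n = 2), from 1849 and 2461 counts. It was 4.39 and 4.91 times Hmox1. An exon overlap of 29 bases with Hdac7 on the opposite strand is the only overlap of its exons with another gene, and Hdac7 held 74 and 62 counts.

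Abcb6 (ENSMUSG00000026198.11, chromosome 1, 75171717 to 75180392, minus strand) encodes a porphyrin transporter of mitochondria, lysosomes and the plasma membrane. It was at 4.46 and 4.07 TPM, or 4.27 ± 0.276 (SD, n = 2), from 251.48 and 324.88 counts. Its mitochondrial relative Abcb10 was 3.79 and 4.13 times higher. The level of Abcb6 is uncertain for a reason that the annotation shows. The noncoding gene Gm29253 (chromosome 1, 75171731 to 75185146) lies on the same strand and contains 93.6% of the exon bases of the full-length transcript Abcb6-201. Of the counts given to both genes together, 901 and 1915, Gm29253 received 72.1% and 83%. With the TPM of Gm29253 added, an alternative chosen after seeing the data, the mean was 6.62 TPM in place of 4.27. Of the 5231 exon bases of Gm29253, 1832 also lie within exons of another gene, Atg9a, which was at 5.12 and 6.83 TPM. The counts of Gm29253 may thus include reads of Atg9a, so neither their share nor this summed level measures Abcb6 alone.

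On the scale of nuclear protein-coding genes, which leaves mitochondrial rRNA out, Tspo2 stood at 568.6 and 527 rescaled TPM, Blvrb at 364.2 and 352, and Abcg2 at 280.4 and 281.6. Slc48a1 was at 230.7 and 190.8, Abcb6 at 95.38 and 79.82, and Hmox1 at 52.61 and 38.83. Hmox2 was at 23.74 and 13.14, Blvra at 30.37 and 2.157, and Flvcr1 at 9.623 and 13.92. The order of the genes is the same on this scale, because within a library every gene is multiplied by the same factor.

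The other heme genes give these levels a setting, with lists described by counts and medians. All 12 heme synthesis genes were detected, with a median of 19.6 and 19.7 TPM. They were led by Alas2 at 179 ± 5.54 TPM. Fech, the last enzyme of the pathway, stood at 44.3 ± 2.34 TPM and Urod at 37.4 ± 0.87. The lowest were Alad at 5.72 ± 0.346 and Alas1 at 2.69 ± 0.148, the form of the first enzyme that other tissues use. Alas2 was 71.2 and 92.4 times Hmox1.

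Of 19 further symbols listed for heme handling, 17 were matched to genes and 5 of these were detected, with a median of 0.67 and 0.78 TPM. The highest were Abcb10 at 16.8 ± 0.0636 TPM, haptoglobin (Hp) at 5.7 ± 1.3, the heme-binding protein Hebp1 at 3.59 ± 0.311 and Tspo at 3.2 ± 0.813. Hemopexin (Hpx), which binds free heme in plasma, and Ugt1a1, which conjugates bilirubin in liver, had 0 counts in both libraries. Of 10 heme-responsive regulators 5 were detected. Eif2ak1, the heme-regulated kinase that slows translation when heme is short, stood at 18.8 ± 1.43 TPM. Mafk was at 3.87 ± 0.141, Nfe2l2 at 3.63 ± 1.59 and Mafg at 3.61 ± 0.255, while Maff had 0 counts and Nr1d1 0 and 2.21 counts. All 5 genes that store, carry or export iron were detected, led by the ferritin chains Ftl1 at 76.7 ± 11.1 TPM and Fth1 at 52.9 ± 2.67. Pcbp2 was at 6.48 ± 0.849, the iron exporter Slc40a1 at 5.52 ± 1.63 and Pcbp1 at 4.29 ± 0.424. All these errors are SD over n = 2 libraries.

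**Figure D2:**
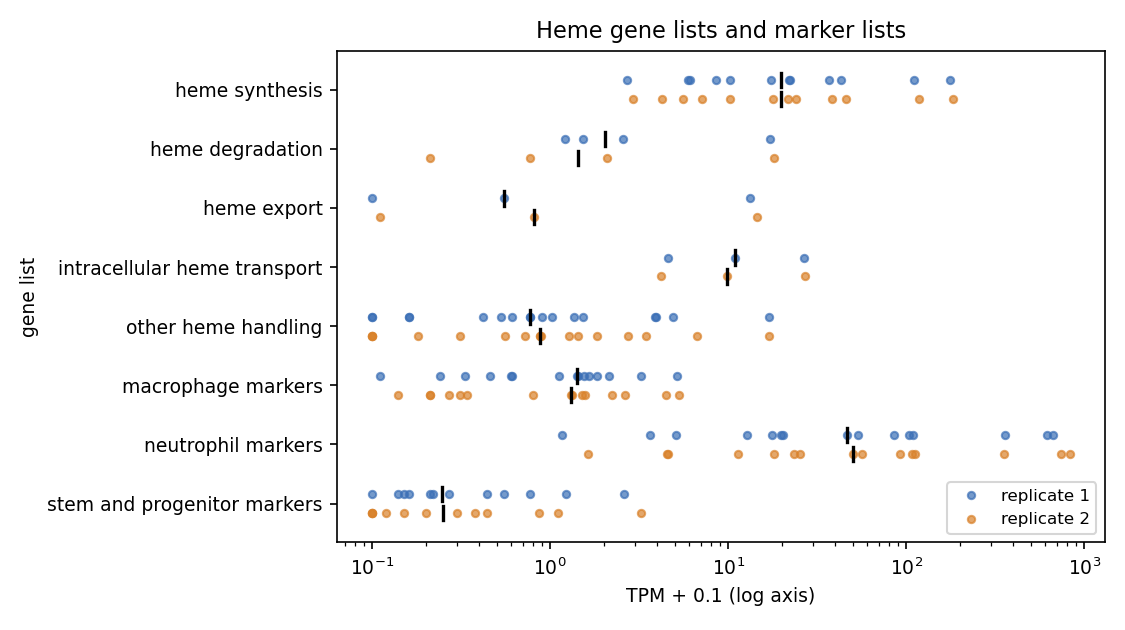
TPM + 0.1 (log axis) of every matched gene of each list, 1 point per gene, in replicate 1 (blue) and replicate 2 (orange); black bars mark the median of TPM + 0.1. The 3 heme degradation genes other than Blvrb lie below every heme synthesis gene in both libraries, the closest being Hmox1 at 2.46 and Alas1 at 2.59 TPM in replicate 1.

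Hmox1, Slc48a1 and Blvrb are also used by macrophages, and the erythroblast label does not say how pure the cells were. Of 15 macrophage markers 8 were detected, with a median of 1.32 and 1.21 TPM and a sum of 20.4 and 21.1 TPM. The highest were Vcam1 at 5.12 ± 0.0849, C1qb at 3.77 ± 0.898, Cd68 at 2.29 ± 0.354 and C1qa at 1.78 ± 0.488 TPM (SD, n = 2). Vcam1 and C1qb lay above Hmox1 in both libraries, and the ranges of Cd68 and C1qa overlapped that of Hmox1. Marco was near 0 at 0.01 and 0.04 TPM. All 15 neutrophil markers were detected, with a median of 46.6 and 50 TPM and a sum of 2110 and 2430 TPM, led by S100a9 at 747 ± 118, S100a8 at 678 ± 88, Ngp at 356 ± 2.9 and Lcn2 at 108 ± 0.905. The part of either cell type in the level of these genes was not tested. In bulk RNA of this kind, fewer cells of a type and less RNA per cell cannot be told apart.

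Abcg2 is also known from blood stem cells. Of 12 stem and progenitor markers 2 were detected, near the share of 14.5% over all nuclear protein-coding genes. These were Cd48 at 2.82 ± 0.453 and Kit at 1.06 ± 0.0849 TPM, with Cd34 below 1 TPM at 0.72 ± 0.0707 and Hlf at 0.34 in both libraries. The list summed to 5.63 and 5.9 TPM, and Procr was at 0 counts in both. Their part in the level of Abcg2 was not tested. Megakaryocyte markers had 1 of 9 detected, B and T cell markers 0 of 8, and endothelial markers 0 of 6.

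The make-up of transcripts differed widely between the genes. Among the 6 detected genes, 5 had the same leading transcript by TPM in both libraries, the exception being Blvrb. The same held for 75.5% of the 2462 detected protein-coding genes with at least 2 annotated transcripts. By TPM, none of the 6 detected genes was led by a transcript of a type other than protein coding, against 18.4% of these genes in replicate 1 and 21.7% in replicate 2. By expected counts, retained-intron transcripts led Tspo2 in both libraries and Abcb6 in replicate 2. Transcripts that are typed protein coding and have both ends of the coding sequence annotated, called complete coding here, carried less than 50% of the TPM of Abcg2 and of Abcb6 in both libraries, 2 of the 6 genes, against 24.3% of these genes. Transcript shares are the authors' estimates from reads that often match several transcripts of a gene. Total RNA also holds unspliced and partly processed RNA, and its part in the retained-intron shares was not tested.

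Abcg2 RNA was assigned to transcripts of a downstream first exon, and hardly any to those of the upstream ones, in both libraries. The start of Abcg2-202, at the downstream exon, lies 43893 bases beyond that of Abcg2-201. Transcripts from the downstream exon held 85.8% of Abcg2 TPM in replicate 1 and 72.1% in replicate 2. The 3 transcripts from upstream exons held 0.152% and 0%, or 3.23 and 0 counts. The rest, 14.1% and 27.9%, lay in annotated fragments that hold none of these first exons. Both full-length forms have the same coding length of 1971 bases. Their first junctions are shown with the last 15 bases of exon 1 in capitals and the first 15 bases of exon 2 in lower case, because the capitals are what tells a read of one from a read of the other.
Abcg2-202, downstream exon 1 at chr6:58640564-58640627: GCCAGGGACCGCGAGaaaggcataaatcct
Abcg2-201, upstream exon 1 at chr6:58596671-58597108: TTACACATAGCAGAGaaaggcataaatcct
Neither first exon shares a 30-base word with another gene.

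The 250 bases before the RefSeq start at each of these exons are given on GRCm38.p6, plus strand, because the exons differ so widely in assigned TPM. The RefSeq starts, base 58640546 downstream and base 58596672 upstream, are not the same bases as the exon starts given above. Capitals mark matches on either strand to CCNCNCCC, where N is any base, or to TGACGTCA.
Before the downstream start, chr6:58640296-58640545: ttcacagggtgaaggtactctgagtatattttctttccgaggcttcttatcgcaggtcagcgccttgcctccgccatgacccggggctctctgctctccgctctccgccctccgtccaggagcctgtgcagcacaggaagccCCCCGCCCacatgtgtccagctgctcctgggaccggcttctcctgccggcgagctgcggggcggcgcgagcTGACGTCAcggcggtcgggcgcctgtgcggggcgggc
Before the upstream start, chr6:58596422-58596671: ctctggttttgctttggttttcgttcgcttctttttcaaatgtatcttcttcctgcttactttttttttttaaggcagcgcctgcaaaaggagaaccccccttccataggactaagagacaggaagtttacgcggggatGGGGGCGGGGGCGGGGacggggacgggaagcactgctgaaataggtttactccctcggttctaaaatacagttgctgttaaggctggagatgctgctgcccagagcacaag
The downstream window has 67.6% G and C and the upstream window 50%. TGACGTCA, a palindrome known as the cyclic AMP response element, begins 37 bases before the downstream RefSeq start. It is in 1.55% of 32851 such windows of RefSeq genes. CCNCNCCC, a pattern bound by Krüppel-like factors, is in both windows and in 45.9% of all windows. A match is a description of the letters only.

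Much of Abcg2 RNA was assigned to transcripts annotated as targets of nonsense-mediated decay or as retained introns. Abcg2-202, the leading transcript, stood at 5.51 and 5.63 TPM, or 41.98% and 39.23% of the gene. Abcg2-206, annotated as a target of nonsense-mediated decay, stood at 3.47 and 3.43 TPM, or 26.48% and 23.89%. It begins exon 14 of 16 at base 58689539 in place of 58689555, which adds 16 bases and leaves a remainder of 1 over whole codons. Its annotated coding sequence, which ends early, is 1728 bases against 1971 in Abcg2-202, and its last exon runs 358 bases further. The end of exon 13 and the start of exon 14 are shown for both, with the added bases in capitals.
Abcg2-202: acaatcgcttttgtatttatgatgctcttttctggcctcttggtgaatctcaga
Abcg2-206: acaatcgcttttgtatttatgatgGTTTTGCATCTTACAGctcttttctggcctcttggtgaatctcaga
The retained-intron transcripts Abcg2-203, Abcg2-204 and Abcg2-205 were at 2.28 and 1.29, 1.39 and 3.19, and 0.46 and 0.81 TPM. Together they held 31.5% of Abcg2 TPM in replicate 1 and 36.9% in replicate 2.

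Blvrb was the detected gene whose leading transcript differed between the libraries. Blvrb-201, which starts at the 5′ end of the gene, stood at 9.69 TPM in replicate 1 and 4.32 TPM in replicate 2. Blvrb-202, which starts 4440 bases downstream, stood at 3.71 and 11.65 TPM. The share of the upstream start, over 3 transcripts, was 78.2% in replicate 1 and 35.1% in replicate 2. That of the downstream start was 21.8% and 64.9%. The summed level of the gene, 17.03 and 17.95 TPM, differed by 1.05 times. The counts behind the leading pair were 623.19 and 402.1 for Blvrb-201 and 172.64 and 779.2 for Blvrb-202. The posterior mean gave the same order, with 55.4% and 24.93% for Blvrb-201 and 22.37% and 63.54% for Blvrb-202.

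The coding sequence of Blvrb-202 has 360 bases and that of Blvrb-201 has 618. Their first exons, of 133 and 219 bases, are followed by the same second exon. The junctions are printed as above, with exon 1 in capitals.
Blvrb-201, exon 1 at chr7:27447978-27448196: AGGCGGTGCAAGCAGgttatgaggtgacgg
Blvrb-202, exon 1 at chr7:27452418-27452550: CATCCTGAAACTCAGgttatgaggtgacgg
Neither form shares a 30-base word with another gene. The 250 bases before each start follow, from RefSeq on GRCm38.p6 and the plus strand, with capitals for CCNCNCCC or for the GATA words AGATAA or TGATAA or AGATAG or TGATAG on either strand.
Before the start of Blvrb-201, chr7:27447728-27447977: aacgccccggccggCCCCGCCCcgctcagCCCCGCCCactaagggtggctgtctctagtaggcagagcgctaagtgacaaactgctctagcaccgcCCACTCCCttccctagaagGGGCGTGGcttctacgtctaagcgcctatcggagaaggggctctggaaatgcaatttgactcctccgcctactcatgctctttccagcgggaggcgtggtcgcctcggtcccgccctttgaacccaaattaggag
Before the start of Blvrb-202, chr7:27452168-27452417: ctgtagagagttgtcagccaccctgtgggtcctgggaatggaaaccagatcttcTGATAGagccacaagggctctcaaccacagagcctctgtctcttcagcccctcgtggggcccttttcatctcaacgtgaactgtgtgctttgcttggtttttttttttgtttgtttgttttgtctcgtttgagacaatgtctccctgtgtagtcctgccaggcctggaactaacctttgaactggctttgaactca
The upstream window has 62% G and C with 4 matches to CCNCNCCC and none to the GATA words. The downstream window has 48.8% G and C with 1 GATA word, TGATAG, which begins 196 bases before the start. A GATA word is in 26.5% of all windows.

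RefSeq windows were matched for 8 of the 10 genes, 13 windows in all, but not for Hmox1 and Slc48a1. CCNCNCCC was in 9 of the 13 windows and the GATA words in 2. TATAAA was in 1 (Abcb6) and in 12.4% of all windows, and TGANTCA in 0 of 13 and in 6.75% of all windows. So few windows cannot tell a share of 0 from 6.75%, and only these 250 bases were searched. The 13 windows belong to 8 genes, and 2 of the Hmox2 windows overlap.

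**Figure D3:**
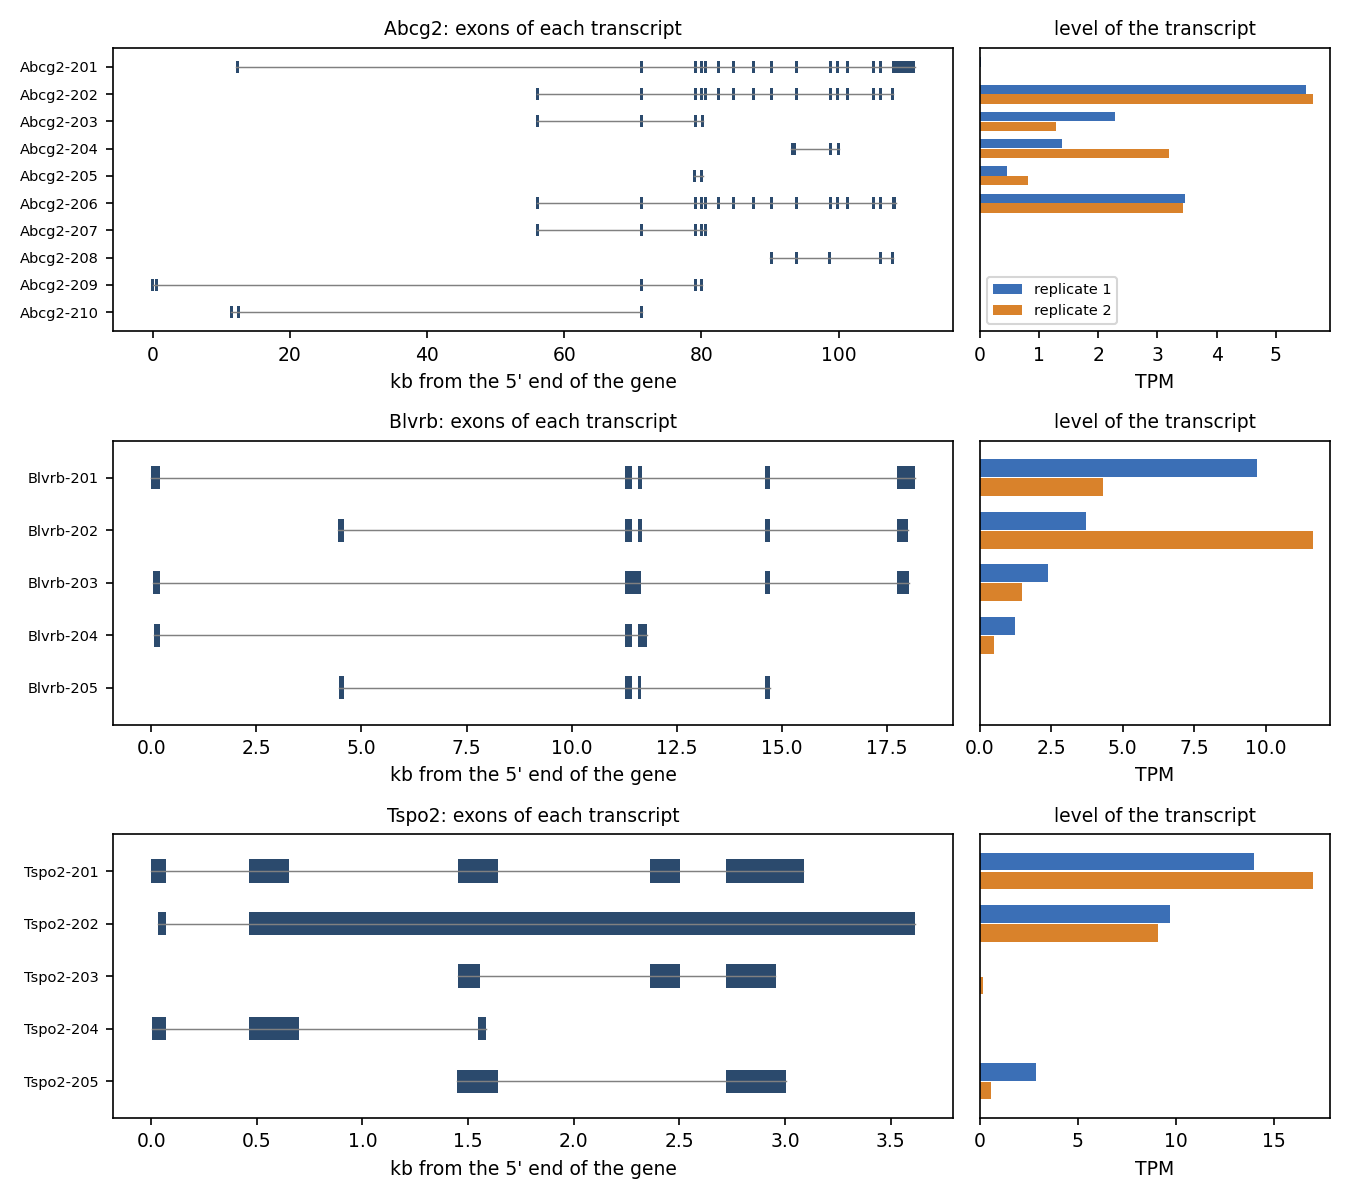
Left, exons (boxes, drawn with a minimum width) of each annotated transcript of Abcg2, Blvrb and Tspo2 by distance in kb from the 5′ end of the gene; right, bars of TPM in replicate 1 (blue) and replicate 2 (orange). Abcg2 transcripts that begin upstream have almost no TPM, and the bars of Blvrb-201 and Blvrb-202 change places between the libraries.

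Tspo2 reads were assigned mainly to a spliced coding form and to an annotated form that keeps most introns. Unspliced or partly processed Tspo2 RNA in total RNA could also give such intron reads, and its part was not tested. Tspo2-201, the coding form, stood at 14 and 17.01 TPM, or 52.64% and 63.33% of the gene. Tspo2-202, annotated as a retained-intron transcript, stood at 9.72 and 9.09 TPM, or 36.54% and 33.82%. It keeps 3 of the 4 introns of Tspo2-201, with 1741 intron bases. Being longer, it received 2105.56 and 2886.28 counts, or 70.1% and 66.1% of the counts of the gene. By TPM the coding form led in both libraries, and by counts the intron-keeping form did. Of the 30-base words of Tspo2-202, 1.11% also occur in other genes. Tspo2-205, which joins exon 3 to the last exon and so skips an exon of 142 bases, stood at 2.88 and 0.6 TPM.

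The end of exon 3 of Tspo2-201 shows these forms in sequence, read on the minus strand of mm10 from the exon at chr17:48449883-48450070. In the first line it is joined to exon 4, in the next it runs on into the intron (in capitals), and in the last it is joined to the exon after exon 4.
Tspo2-201: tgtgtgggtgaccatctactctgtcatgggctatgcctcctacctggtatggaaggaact
Tspo2-202: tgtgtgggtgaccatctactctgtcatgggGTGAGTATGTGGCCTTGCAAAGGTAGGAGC
Tspo2-205: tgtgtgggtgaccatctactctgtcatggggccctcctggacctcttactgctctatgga
The skipped exon leaves a remainder of 1 over whole codons, and the annotated coding sequence of Tspo2-205 has 204 bases against 486 in Tspo2-201.

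By TPM, Abcb6 and Flvcr1 were carried mostly by annotated pieces of the gene and not by the full-length form. Abcb6-206, of 416 bases in 4 exons, all within the 19 exons of Abcb6-201, held 3.67 and 3.35 TPM, or 82.37% and 82.25% of Abcb6 TPM. It received 74.36 and 94.15 counts, 29.6% and 29% of the counts of the gene. The full-length Abcb6-201 was at 0.45 and 0.16 TPM, from 90.7 and 46.48 counts. By counts, Abcb6-201 led in replicate 1 and the retained-intron form Abcb6-203 in replicate 2, at 69.87 and 99.59 counts for the latter. Of the 30-base words of Abcb6-201 91.7% also occur in Gm29253, and of those of Abcb6-206 80.4%.

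For Flvcr1, transcripts of the 3′ end held 84.8% and 94.4% of TPM. The main one, Flvcr1-205, was at 0.39 and 0.52 TPM, and 2429 of its 2449 bases lie within exons of the full-length Flvcr1-201. Flvcr1-201 itself was at 0.07 and 0.02 TPM, from 18.5 and 7.18 counts. So few counts leave the level of the full-length form poorly measured.

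The remaining genes were carried by 1 coding transcript. Hmox1-201 held 97.5% and 100% of Hmox1 TPM, Hmox2-201 held 100% in both, and Slc48a1-201 held 99.04% and 100%. The reads given to Hmox2-201 rest on the sharing out with Cdip1 described above. Blvra-201 held 69.63% in replicate 1, where Blvra-202 held 30.37%, and 100% in replicate 2, where all 12 counts were given to it.

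**Figure D4:**
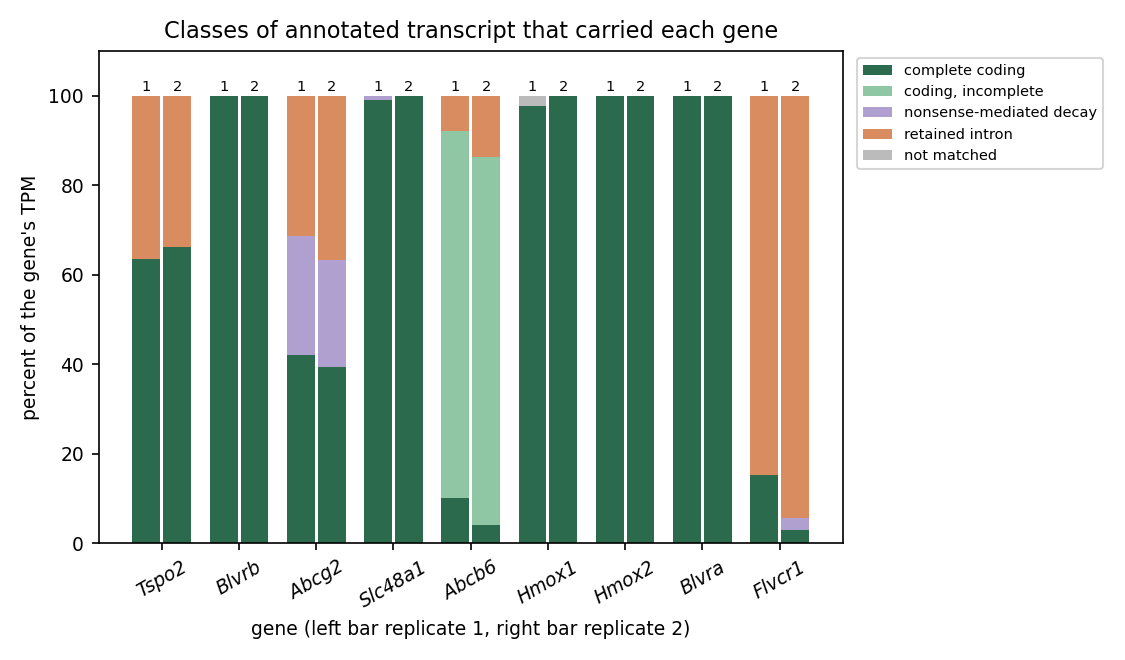
Percent of each gene's TPM (bars, 0 to 100) by class of annotated transcript, with replicate 1 left and replicate 2 right; Flvcr2, at 0 and 2 counts, is not drawn. Complete coding transcripts carried all or nearly all of Blvrb, Slc48a1, Hmox1, Hmox2 and Blvra, and less than 50% of Abcg2, Abcb6 and Flvcr1. Those of Blvrb include Blvrb-202, whose coding sequence is shorter than that of Blvrb-201. The Abcb6 and Flvcr1 shares rest on how reads were divided among overlapping transcripts.

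Counting only complete coding transcripts, which leaves out those typed as decay targets or retained introns, an alternative chosen after seeing the data, leaves Tspo2 and Blvrb with overlapping libraries. Tspo2 then stood at 16.9 and 17.8 TPM and Blvrb at 17 and 17.9 TPM, where the whole genes stood at 26.7 and 17.5 TPM on average. The Blvrb value includes Blvrb-202, with a coding sequence of 360 bases against 618 in Blvrb-201. Taken alone, Tspo2-201 stood at 14 and 17.01 TPM and Blvrb-201 at 9.69 and 4.32 TPM, with no overlap. Abcg2 stood at 5.53 and 5.63 TPM, below Slc48a1 at 10.7 and 9.73 TPM. Abcb6 was at 0.45 and 0.16 TPM and Flvcr1 at 0.07 and 0.02 TPM. The levels of both genes here rest on how reads were divided among overlapping transcripts, and for Abcb6 also on the reads given to Gm29253. On this measure 5 of the 10 genes had at least 1 TPM in both libraries. The share over all nuclear protein-coding genes was not computed on this measure, so the count is a description only.

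The libraries were set against each other by counts scaled for library size and composition. Of the 9 genes with a mean of at least 20 counts, 7 differed by less than 1.5 times, against 60.7% of 9958 genes. The log2 ratio of replicate 2 to replicate 1 was 0.00 for Abcg2, -0.11 for Tspo2, -0.20 for Blvrb, -0.23 for Slc48a1, -0.27 for Abcb6, -0.40 for Hmox1 and 0.52 for Flvcr1. Only Hmox2 at -0.81 and Blvra at -3.30 lay past 1.5 times, both higher in replicate 1, but Flvcr1 also did at 0.63 by library totals and Hmox2 did not at -0.34 on log2(TPM + 1). Among all 9958 genes, 18.4% were that much higher in replicate 1 and 20.9% in replicate 2. Genes with a mean count near that of Blvra, 2179 in number, had a median absolute log2 ratio of 0.76, and 2.25% of them differed by at least as much as Blvra. For Hmox2 the same share was 27.9%, so its ratio is common at that depth. With 1 group there is no residual spread for a test, and none was made.

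**Figure D5:**
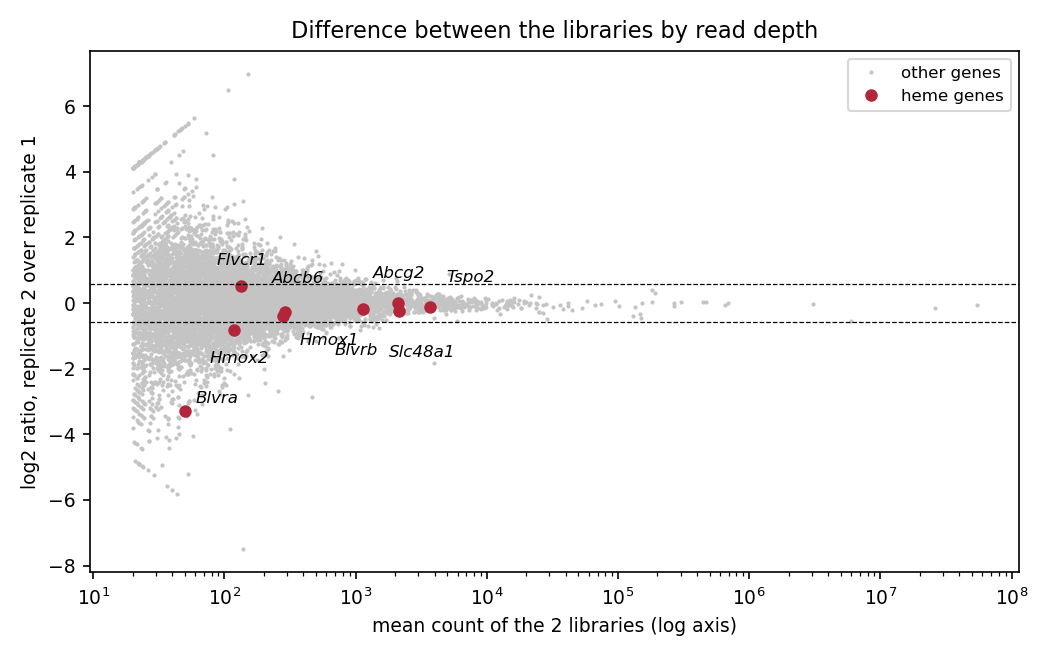
Log2 ratio of replicate 2 to replicate 1 against the mean count of the libraries (log axis) for 9958 genes (grey) and the 9 heme genes that passed the count minimum (red); dashed lines mark 1.5 times in either direction. The spread narrows with depth, and on this scaling only Hmox2 (-0.81) and Blvra (-3.30) lie outside the lines, while Flvcr1 joins them by library totals (0.63) and Hmox2 leaves them on log2(TPM + 1) (-0.34).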

How the data were processed

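Each library came with a gene table and a transcript table. Per the deposited read-me, these were quantified on mm10 with GENCODE M4; the sources used here do not name the aligner or quantifier. Per the file headers, the authors deposited expected counts (reads of several possible origins are shared out), TPM and FPKM values, posterior mean TPM, and the percent of a gene's TPM per transcript. TPM was scaled over all rows, rRNA and spike-ins included.

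Identifiers without version were matched to GENCODE M21 (same build), 42462 of 43346. Detected means at least 1 TPM in both libraries. Ratios between libraries used rounded counts with TMM factors 0.962 and 1.04 (edgeR 4.0.16, R 4.3.3, prior count 2, mean count at least 20). The calculation was tested on simulated data only for genes with higher counts than Blvra, so that test does not bear on the Blvra ratio. DESeq2 1.42.0 gave alternative size factors. Tables were handled with pandas 2.3.3, intervals with scipy 1.17.1. Junctions are from GENCODE M21 transcripts; shared words ignore strand. All 10 genes were named, and of each other pathway list the 4 highest and 2 lowest by mean TPM, of each marker list the 4 highest; 1 gene that this rule names is not reported here. The members and lists were chosen with earlier results of these data known. The listed symbols Slc49a3 and Slc49a4 were not matched under those names.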

Additional observations from a re-analysis of the deposited data

How the results depend on the processing

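The median level of the 10 genes was 3.24 TPM as the mean of the libraries, 3.03 to 3.46 TPM with 1 library left out, 2.91 in FPKM and 1.62 TPM over complete coding transcripts. On the rescaled scale it was 66.7, or 59.3 to 74 with 1 library left out, and 118 with globins removed from the reference set. The macrophage median of 1.27 TPM (1.21 to 1.32) corresponds to 26 rescaled TPM. These moves follow from the change of unit, of reference or of the transcripts summed. Detection ranged from 5 to 9 of 10 genes over all alternatives, with 6 to 8 when 1 library was left out. The share over all nuclear protein-coding genes was computed only for deposited and rescaled TPM of at least 1, at 14.5% and 42.9%. With 2 libraries, a value from 1 library always lies within 1 SD of the mean, so these ranges are no sign of stability. The leading transcripts cannot be compared between libraries with 1 left out, and this was not run.

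Genes within 1.5 times numbered 6 to 8 over all scalings, and the share over all genes moved too. By library totals they were 6 of 9 against 60% of all genes tested, and on log2(TPM + 1) 8 of 9 against 92.2%. Without the count minimum they were 7 of 10 against 80.2%. Flvcr1 reached 0.63 by library totals, which shift the median of all genes from 0.018 to 0.130, and Hmox2 fell short at -0.34 on log2(TPM + 1). Blvrb, Abcg2 and Tspo2 lay so near 0 that no direction is given; Blvrb was -0.20 here and 0.08 on log2(TPM + 0.1). Without the count minimum, replicate 2 exceeded replicate 1 by over 1.5 times for 8.49% of genes, and the reverse held for 11.3%. No paired analysis was possible because there is 1 group. Depth limits Flvcr2, Flvcr1-201 and Blvra in replicate 2, each at fewer than 20 counts. Outlying samples cannot be looked for in a group of 2.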
